A study of Mus musculus with 6 samples.

Results

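The epithelial program regulators described here are 10 mouse genes for transcription and splicing factors: Grhl1, Grhl2, Ovol1, Ovol2, Esrp1, Esrp2, Rbm47, Elf3, Ehf and Klf5. They were chosen by name, and their probes were found through the RefSeq accession of each probe that is not a control. All 10 were on the array, with 14 probes of 55681, and 9 of them were among the 15852 genes tested. RNA came from spheres, cell clusters grown in a medium with EGF, bFGF, heparin and B27, that were made from mammary tumors of FRS2beta knockout mice (3 arrays, FRS2beta knock-out) and of FRS2beta heterozygous mice (3 arrays, FRS2beta hetero). Thus each hetero animal also carried a knockout allele, and no wild-type group was measured. What drives the tumors, the strain, the age, and whether the replicates were separate tumors or cultures are not given in the sources used here, so p-values measure only the spread between these arrays, which may be technical.

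Epithelial cells keep their junctions and polarity through a small set of regulators that act against the mesenchymal program. Grainyhead-like factors (GRHL) bind enhancers of junction genes such as E-cadherin, OVOL zinc-finger factors repress Zeb1 and other drivers of epithelial-mesenchymal transition (EMT), and ESRP proteins and the related RNA-binding protein RBM47 steer splicing towards epithelial isoforms. ELF3 and EHF are epithelial ETS factors and KLF5 is a Kruppel-like factor of proliferating epithelium. In the mammary gland these genes are expressed in the ducts and alveoli and little in the stroma.

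FRS2beta is encoded by Frs3, whose single probe had scaled log2 signals of -7.88, -7.95 and -7.36 on the knockout arrays and -7.30, -4.64 and -6.01 on the hetero arrays. It was well above background on 0 of 3 knockout arrays and 1 of 3 hetero arrays, so it is no check of the genotype labels. Scaled log2 signal means the log2 processed intensity minus that of the array's 75th percentile, which was 465 to 487 in intensity on the knockout arrays and 404 to 416 on the hetero arrays. Across genes, Pearson correlations were 0.9953 to 0.998 within a genotype and 0.9659 to 0.9709 between genotypes. A single slide, read in a single scan, carried all arrays. At an adjusted p under 0.05, 60.4% of the genes tested differed: 4416 (27.9%) were higher and 5152 (32.5%) lower in the knockout. Scaled to spike-in spots instead, 11418 were higher and 1240 lower, because that scaling adds 0.42 to every log2 fold change. Every change given here is therefore relative to how the bulk of the genes moved.

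Of the 9 regulators tested, 8 rose in knockout spheres, beside 27.9% of all genes, and 7 of them rose at least 2-fold, which 6.6% of all genes did. At their brightest probes, Ehf rose 17.3-fold, Grhl1 13.5-fold, Grhl2 12.7-fold, Esrp2 3.72-fold, Esrp1 2.74-fold, Rbm47 2.54-fold and Klf5 1.74-fold. Elf3 rose at least 6.39-fold by the bound defined below, which sets no place for it among them. The order of the others depends on probe and background: with probes averaged, Ehf (3.55 log2 units) lay below Grhl1 (3.76), and with normexp background correction Ehf (2.52) lay below Grhl2 (2.82). Ovol2 differed by -0.10 log2 units, and Ovol1 was too dim to test. The median log2 fold change of the 9 was 1.90, against -0.03 over all genes tested. At the level of probes, 12 of 13 tested were higher, beside 19.4% of all probes, and 1 was lower, beside 27.6%. Elf3 and the dimmer probes of Grhl2 and Esrp1 passed the background filter through the knockout arrays alone, so they could hardly have been called lower. With probes above background on all 6 arrays, 7 of 8 regulators were higher and 1 lower, beside 4081 of 14580 genes higher and 5153 lower. Of the regulators' probes, 9 of 10 were then higher and 1 lower. For the 8 regulators that rose, every knockout array lay above every hetero array, as it did for 31.6% of all genes. Bulk RNA of whole spheres was measured, so more epithelial cells and more RNA per cell cannot be told apart.

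**Figure D1:**
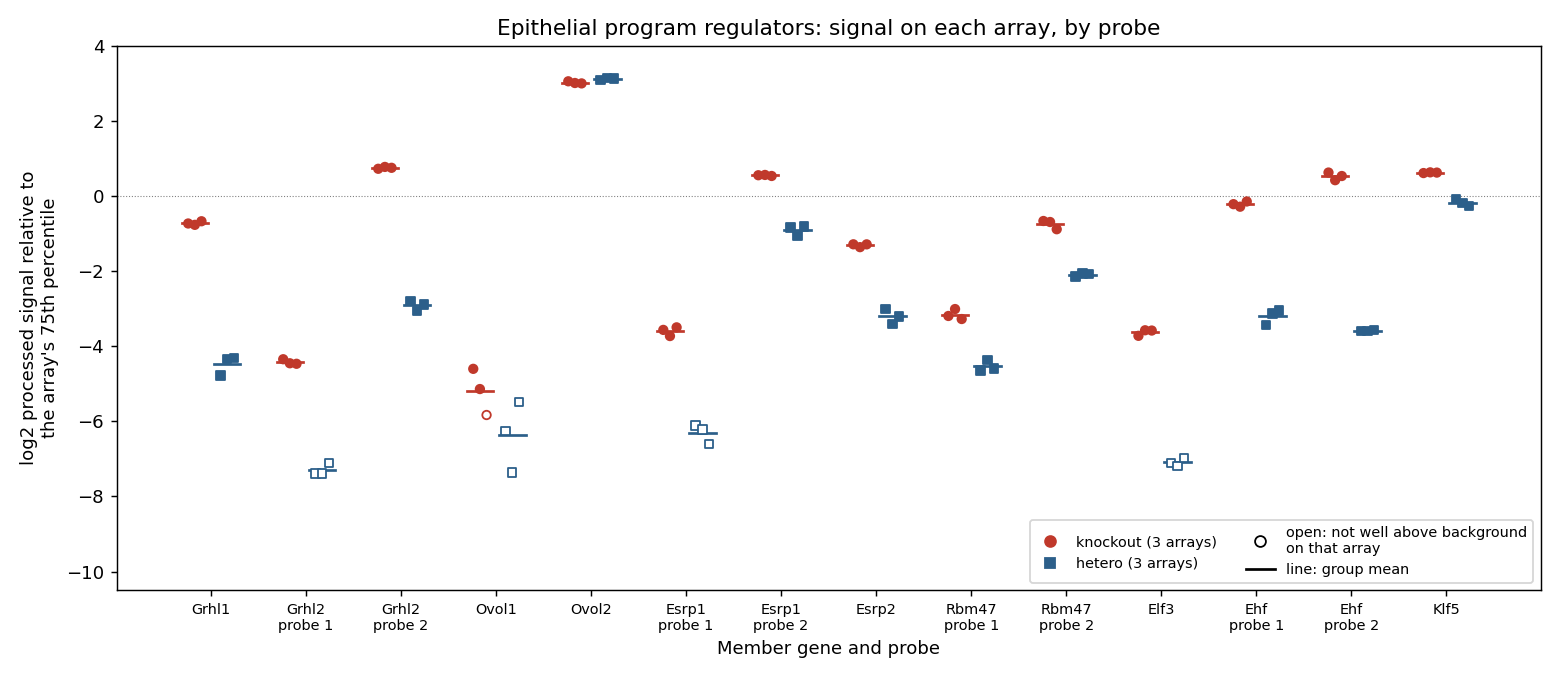
Scaled log2 signal (vertical axis, log2 units relative to the array's 75th percentile) of each of the 14 probes on each of the 6 arrays, knockout as circles left of hetero as squares, with a line at each group mean and open points where the probe was not well above background on that array. Knockout arrays lie clear of hetero arrays for all probes except those of Ovol1, where they overlap, and Ovol2, where both groups lie near 3.

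Among the GRHL factors, Grhl2 had scaled log2 signals of 0.73, 0.78 and 0.75 on the knockout arrays, against -2.79, -3.06 and -2.88 on the hetero arrays, at its brighter probe (transcript NM_026496). That is a log2 fold change of 3.67 ± 0.07 (SE, limma adjusted p = 1.28e-06). The second Grhl2 probe was dimmer and not well above background on any hetero array. Such a probe gives only a bound, in which each hetero array counts at the probe's own signal or at the dimmest signal that passed the background test there, whichever is higher. The dimmest passing signal is not a strict detection limit. On hetero replicate 3, Ovol1 read an intensity of 9.27 without passing, above the dimmest passing intensity there of 4.99. Each "at least" fold here is a bound in this sense only. By this bound the second Grhl2 probe was at least 3.68-fold higher, with signals of -4.34, -4.45 and -4.47 on the knockout arrays and -7.39, -7.38 and -7.11 on the hetero arrays. Both Grhl2 probes thus moved the same way. Grhl1 (NM_145890) had -0.73, -0.77 and -0.67 on the knockout arrays, against -4.78, -4.34 and -4.31 on the hetero arrays. It rose by 3.76 ± 0.14 log2 units (adjusted p = 1.02e-05), with no overlap between the groups.

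Grhl1 and Grhl2 were compared as a difference within each array. The per-array difference between Grhl2 and Grhl1 averaged 1.47 ± 0.06 in knockout spheres and 1.56 ± 0.37 in hetero spheres (SD, n = 3 each). The resulting difference of the log2 changes was -0.09, with an exact two-sided permutation p of 0.9 (0.9 after adjustment over the 2 paralog pairs compared), where 3 against 3 arrays cannot go below 0.1, so the test could not have passed 0.05. With hetero replicate 1 left out it was 0.12. With probes averaged it was -0.49 and with normexp, which models background from the median pixel signals, 0.87, each with an exact permutation p of 0.1.

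The OVOL factors gave no rise that held across scalings. Ovol2, a repressor of Zeb1 in epithelium (NM_026924), had signals of 3.058, 3.013 and 3.002 on the knockout arrays and 3.099, 3.148 and 3.132 on the hetero arrays at its only probe. The knockout arrays were slightly lower without overlap, as 37.2% of all genes were, and the log2 fold change was -0.10 ± 0.03, or 1.07-fold lower (adjusted p = 0.0215), beside 32.5% of all genes called lower. This call depended on the setting, and it was lost under 8 of 17 other settings. Scaled to spike-in spots, Ovol2 was called higher (0.31, adjusted p = 0.000259). Over those settings the adjusted p ran up to 0.3. The Ovol2 probe was the brightest regulator probe on every array. On the hetero arrays its intensity was 3530 to 3644, beside 348 to 391 for Klf5, 15.0 to 21.0 for Grhl1 and 21.0 to 25.7 for the epithelial gene Cdh1. Whether this single probe measures Ovol2 alone was not tested. Ovol1, which acts in epidermis (NM_019935), was well above background on knockout replicates 1 and 2 and on 0 of 3 hetero arrays, with signals of -4.60, -5.14 and -5.83 in knockout and -6.26, -7.37 and -5.49 in hetero spheres. Those ranges overlapped. Its bound is at least 1.76-fold higher, taken over all 3 knockout arrays although only 2 measured it, and fitted without the filter on dim probes its adjusted p was 0.163.

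The epithelial ETS factors rose together. Ehf (NM_007914) had signals of 0.63, 0.42 and 0.54 on the knockout arrays, against -3.59, -3.59 and -3.57 on the hetero arrays at its brighter probe, a rise of 4.11 ± 0.05 log2 units (adjusted p = 4.42e-07). The other Ehf probe rose by 2.99 ± 0.11 (adjusted p = 2.88e-05 over all probes), with knockout signals of -0.21, -0.28 and -0.14 and hetero signals of -3.43, -3.12 and -3.05. The size of the Ehf rise thus depends on the probe, and its direction does not. Elf3 (NM_007921) was well above background on all 3 knockout arrays, at -3.72, -3.57 and -3.58, and on no hetero array, where it read -7.10, -7.19 and -6.98. It was at least 6.39-fold higher, a bound that was not itself tested. The limma adjusted p of 1.36e-06 belongs to the fitted change, which takes those hetero readings as they are. The bound holds for the processed signal alone, since with normexp the log2 change of Elf3 was 0.33 (adjusted p = 0.00895). Klf5 (NM_009769) had signals of 0.61, 0.63 and 0.63 in knockout and -0.07, -0.18 and -0.26 in hetero spheres. It rose by 0.80 ± 0.05 (adjusted p = 8.16e-05), and its groups did not overlap.

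Promoter sequences show where some of the regulators start. The 250 bases before the start are printed from RefSeq windows on GRCm38.p6. They are given for Elf3 and Grhl1, which rose, and for Ovol2, whose only probe gave no rise that held across scalings. Of the 10 regulators, 4 matched a window, the other being Rbm47. Capitals mark short motifs found on either strand: the GRHL core AACCGG, the E-box CACCTG that ZEB and SNAIL factors bind, the ETS core GGAAG, the KLF core CACCC and the OVOL core CCGTTA.
Elf3 (chr1:135258473-135258722, minus strand): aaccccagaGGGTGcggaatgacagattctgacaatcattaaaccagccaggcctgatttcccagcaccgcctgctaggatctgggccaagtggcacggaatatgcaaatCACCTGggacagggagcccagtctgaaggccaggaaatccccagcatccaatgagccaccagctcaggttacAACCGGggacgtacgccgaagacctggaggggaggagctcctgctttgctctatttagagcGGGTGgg
Grhl1, first start (chr12:24572037-24572286, plus strand): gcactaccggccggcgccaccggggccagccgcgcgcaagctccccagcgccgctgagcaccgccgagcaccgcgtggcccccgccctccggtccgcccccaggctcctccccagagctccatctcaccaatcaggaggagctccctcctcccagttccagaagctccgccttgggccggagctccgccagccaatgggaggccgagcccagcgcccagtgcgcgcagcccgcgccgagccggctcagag
Grhl1, second start (chr12:24580469-24580718, plus strand): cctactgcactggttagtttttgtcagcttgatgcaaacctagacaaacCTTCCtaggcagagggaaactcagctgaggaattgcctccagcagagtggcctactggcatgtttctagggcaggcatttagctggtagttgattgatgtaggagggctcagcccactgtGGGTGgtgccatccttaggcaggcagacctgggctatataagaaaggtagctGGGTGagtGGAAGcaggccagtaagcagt
Ovol2 (chr2:144331363-144331612, minus strand): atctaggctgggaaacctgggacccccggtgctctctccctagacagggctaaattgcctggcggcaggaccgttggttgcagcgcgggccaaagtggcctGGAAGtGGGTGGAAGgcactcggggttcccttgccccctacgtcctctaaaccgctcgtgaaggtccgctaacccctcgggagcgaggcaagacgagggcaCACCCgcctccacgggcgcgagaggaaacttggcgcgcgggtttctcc
The Elf3 window held 1 GRHL core, 1 E-box and 2 KLF cores. The first Grhl1 window, with 75.6% G and C, held none of the motifs, and the second held 2 ETS and 2 KLF cores. The Ovol2 window held 2 ETS and 2 KLF cores, of which one pair shares 1 base. Of 32851 mouse windows of the same length, 5.62% held AACCGG, 17.2% CACCTG, 64.1% GGAAG, 52% CACCC and 2.18% CCGTTA. These matches describe letters only, and no binding was measured.

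Among the RNA-binding regulators, Esrp1 (NM_194055) had signals of 0.56, 0.56 and 0.54 on the knockout arrays, against -0.84, -1.06 and -0.80 on the hetero arrays at its brighter probe. It rose by 1.45 ± 0.07 log2 units (adjusted p = 3.11e-05). A second Esrp1 probe read -3.56, -3.73 and -3.50 in knockout spheres and -6.10, -6.21 and -6.60 in hetero spheres, where no array was above background. Its bound of at least 5.64-fold exceeds the 2.74-fold of the brighter probe, so the probes of Esrp1 disagree in size. Esrp2 (NM_176838), which shares the role of Esrp1, had -1.28, -1.36 and -1.28 on the knockout arrays, against -3.00, -3.40 and -3.21 on the hetero arrays, and rose by 1.90 ± 0.10 (adjusted p = 4.91e-05). Rbm47 (NM_178446) had -0.66, -0.69 and -0.88 in knockout and -2.14, -2.06 and -2.07 in hetero spheres, and rose by 1.35 ± 0.07 (adjusted p = 3.13e-05). Its dimmer probe gave a similar 1.38 ± 0.11. In Esrp1, Esrp2 and Rbm47 the groups did not overlap.

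At the brighter Esrp1 probe, the log2 change of Esrp2 was 0.44 above that of Esrp1, in a design that cannot pass 0.05. Their per-array difference was -1.86 ± 0.05 in knockout spheres and -2.31 ± 0.13 in hetero spheres (SD, n = 3 each; exact two-sided permutation p = 0.1, the smallest possible, and 0.2 adjusted over the 2 pairs). This order rests on the probe, since with the probes of Esrp1 averaged the difference was -0.18, and it was -0.18 with normexp as well.

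**Figure D2:**
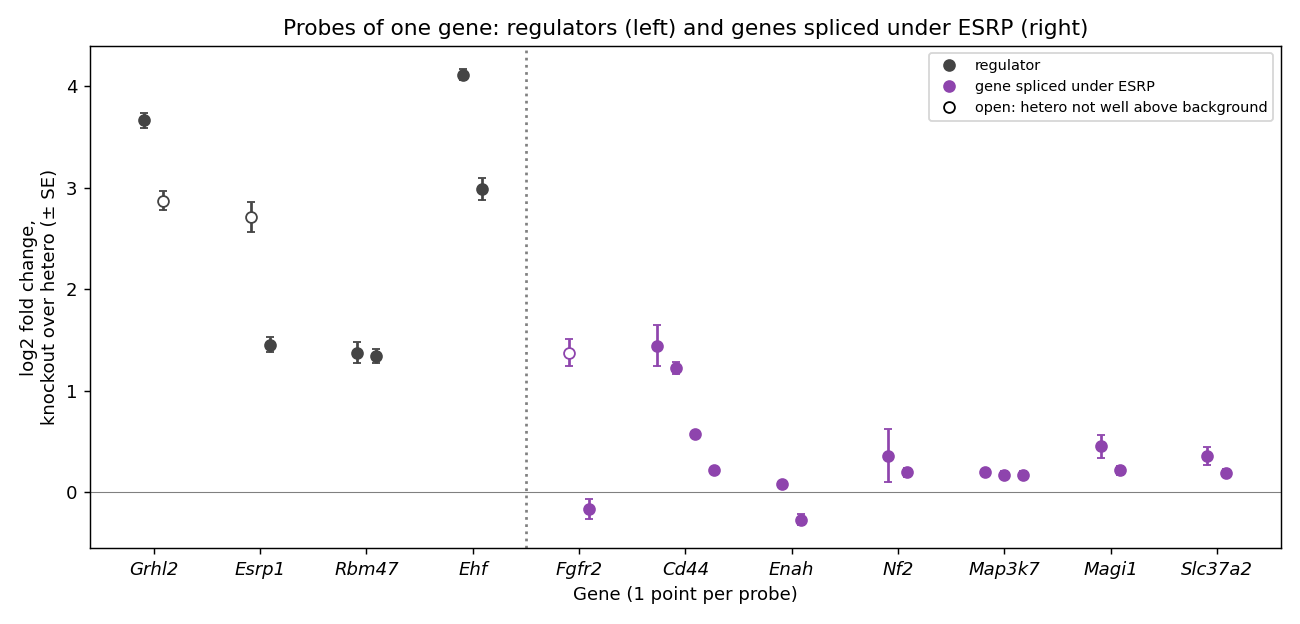
Log2 fold change, knockout over hetero, with its standard error (vertical axis) for each tested probe of the regulators and of the genes spliced under ESRP that have several probes. Open points mark probes not well above background on any hetero array. The probes of Rbm47 coincide, those of Esrp1 and Ehf differ in size, and those of Cd44 spread between 0.22 and 1.45. Those of Enah and of Fgfr2 have opposite signs.

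Slide row and processing changed sizes more than calls. Knockout replicates 1, 2 and 3 lay in slide columns 2, 4 and 2, and hetero replicates 1, 2 and 3 in columns 1, 3 and 1. No column held both genotypes, so slide column and genotype cannot be told apart. Both genotypes had replicates 1 and 2 in slide row 1 and replicate 3 in row 2. The 8 tested regulators other than Elf3, which has only a bound, kept their sign within each row. The within-row changes were 3.81 and 3.64 for Grhl1, 3.68 and 3.64 for Grhl2, 4.12 and 4.10 for Ehf, 1.51 and 1.34 for Esrp1, 1.88 and 1.93 for Esrp2, 1.42 and 1.19 for Rbm47, 0.75 and 0.88 for Klf5, and -0.09 and -0.13 for Ovol2, in rows 1 and 2. With normexp the rises were smaller: 1.95 for Grhl1, 2.82 for Grhl2, 2.52 for Ehf, 1.06 for Esrp2, 1.24 for Esrp1, 0.93 for Rbm47 and 0.66 for Klf5. Normexp adds an offset of 50, more than the arrays' median processed intensities (31.1 to 38.1), which by construction shrinks the changes of dim probes.

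**Figure D3:**
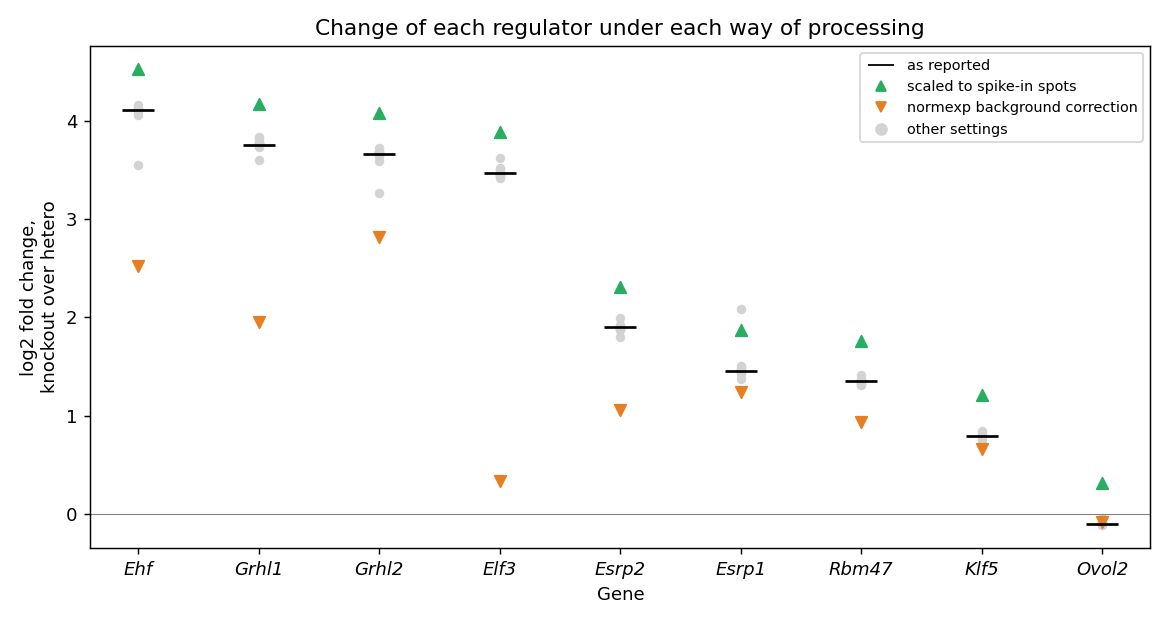
Log2 fold change, knockout over hetero (vertical axis), of each tested regulator as reported (black line), scaled to spike-in spots (upward triangle), with normexp background correction (downward triangle) and under the other settings (grey points). The 8 rises stay above 0 under each, and Ovol2 lies near 0, at -0.10 as reported and 0.31 when scaled to spike-in spots.

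Among genes of the same families the called shares were near those of all genes. Of 11 relatives tested (Grhl3, other ELF and SPDEF factors, other KLF factors), 2 were higher (18.2%, beside 27.9% of all genes) and 4 lower (36.4%, beside 32.5%), with a median log2 fold change of -0.03. Grhl3, the third grainyhead-like gene, rose by 2.85 ± 0.14 (7.23-fold, adjusted p = 2.92e-05), with signals of -1.12, -1.16 and -1.01 in knockout and -3.72, -4.23 and -3.89 in hetero spheres. Elf5, the factor of the milk-secreting alveolar lineage, rose by 3.54 ± 0.07 (11.6-fold, adjusted p = 1.21e-06), with 0.92, 0.98 and 0.98 in knockout and -2.45, -2.70 and -2.59 in hetero spheres. In both relatives every knockout array lay above every hetero array. Klf3, Klf4 and Elf2 were lower by small amounts (-0.32 ± 0.03, -0.19 ± 0.03 and -0.09 ± 0.03), and each of these turned positive when scaled to spike-in spots, where 10 of the 11 relatives were higher. Under median scaling 2 were higher and 1 lower.

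Epithelial junction, trafficking and protease genes, among them the GRHL target Cdh1, were higher almost throughout. Of 20 tested, 18 rose and 0 fell, with a median of 3.31, beside 27.9% of all genes called higher. E-cadherin, Cdh1, had signals of -0.56, -0.48 and -0.56 in knockout and -4.30, -3.97 and -4.14 in hetero spheres, a rise of 3.60 ± 0.09 (12.1-fold, adjusted p = 2.40e-06). The adhesion gene Epcam rose 13.4-fold, the claudins Cldn3 and Cldn7 10.05-fold and 9.94-fold, the membrane protease gene St14 10.1-fold and desmoplakin, Dsp, 9.62-fold. The 2 that did not pass were Pkp3 (-0.17 ± 0.07, adjusted p = 0.106) and Spint2 (-0.15 ± 0.05, adjusted p = 0.0598), named here after their values were seen.

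Of 10 EMT transcription factors tested, 1 was higher (10%, beside 27.9% of all genes) and 5 lower (50%, beside 32.5%), with a median log2 fold change of -0.10. Zeb1, which GRHL2 and OVOL factors repress in epithelium, had signals of 3.54, 3.53 and 3.49 in knockout and 3.66, 3.63 and 3.59 in hetero spheres. Its change of -0.10 ± 0.03 (adjusted p = 0.0242) turned to 0.31 when scaled to spike-in spots, and Zeb2 differed by -0.03 ± 0.05 (adjusted p = 0.557). Snai2 fell by 0.71 ± 0.04 (adjusted p = 5.86e-05), Snai1 by 0.49 ± 0.04 (adjusted p = 0.000177) and Twist1 by 0.43 ± 0.03 (adjusted p = 7.5e-05). With spike-in scaling Snai2 was still called lower, and the calls of Snai1 (-0.07, adjusted p = 0.177) and Twist1 (-0.02, adjusted p = 0.606) were lost. Foxc2 rose by 0.58 ± 0.09 (adjusted p = 0.00256). With spike-in scaling 7 were higher and 1 lower, so the direction of the list depends on the scaling. The regulators' rises of up to 17.3-fold thus stood beside tested EMT factors that differed by at most 1.64-fold.

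**Figure D4:**
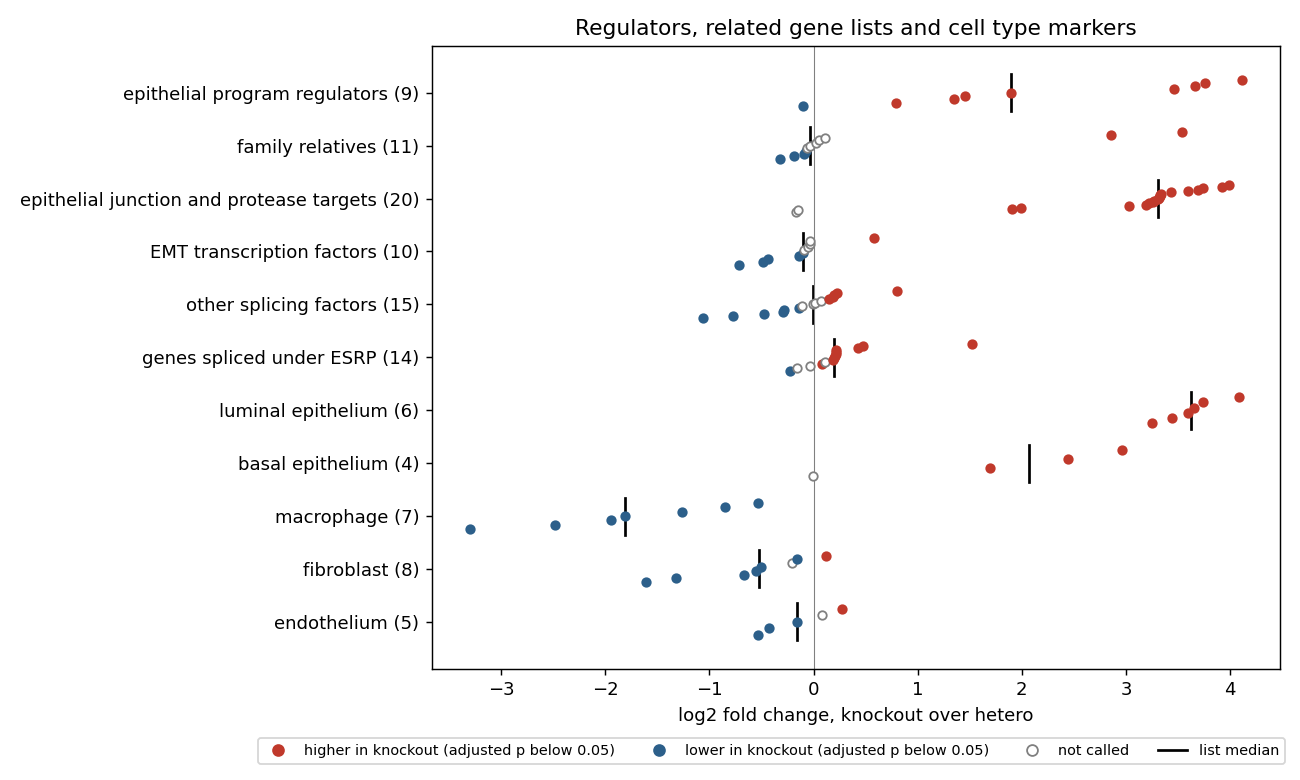
Log2 fold change, knockout over hetero (horizontal axis), of each tested gene, by list, with the number tested in brackets and a black line at the list median. Red points were called higher and blue points lower in knockout spheres, and open points were not called. The regulators, the junction and protease targets (median 3.31), the luminal markers (median 3.63) and the basal markers (median 2.07) lie mostly to the right. The macrophage markers (median -1.81) lie to the left.

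Of 15 splicing factors outside the ESRP family, 5 were higher (33.3%) and 6 lower (40%), near the 27.9% and 32.5% of all genes (median -0.00). With spike-in scaling 11 were higher and 2 lower. Celf2, an RNA-binding protein abundant in mesenchymal and blood cells, fell by 1.06 ± 0.02 (2.08-fold lower, adjusted p = 1.60e-06) and Khdrbs3 by 0.78 ± 0.03 (adjusted p = 1.12e-05). Mbnl3 rose by 0.80 ± 0.07 (adjusted p = 0.000366) and Mbnl1 by 0.19 ± 0.03, while Mbnl2 differed by -0.29 ± 0.03. Rbfox2, which steers splicing in mesenchymal cells, differed by -0.30 ± 0.05 (adjusted p = 0.00507). The differences of Mbnl2 and Rbfox2 turned positive with spike-in scaling, to 0.13 and 0.12.

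Genes whose splicing ESRP proteins control were measured as transcripts, not isoforms, and 10 of 14 were higher (71.4%, beside 27.9% of all genes) and 1 lower (7.14%, beside 32.5%), with a median of 0.20. Under median scaling 6 were higher and 1 lower, under spike-in scaling 13 were higher, and with probes averaged 9 were higher and 2 lower. The probes of Enah, named here after its values were seen, went opposite ways. Its brighter probe, which stands for it among the genes, differed by 0.08 ± 0.03 (limma adjusted p = 0.0593 over all probes). Its dimmer probe differed by -0.27 ± 0.06 (adjusted p = 0.0123). Ralgps2 rose by 1.52 ± 0.03 (2.88-fold, adjusted p = 1.64e-06), p120 catenin, Ctnnd1, by 0.43 ± 0.03 (adjusted p = 6.75e-05) and Map3k7 by 0.20 ± 0.02 (adjusted p = 0.000696). Exoc7 differed by -0.22 ± 0.03 (adjusted p = 0.00144), and by 0.19 with spike-in scaling. The hyaluronan receptor gene Cd44, a textbook ESRP target, has 4 probes for transcript NM_009851, and all were higher in knockout spheres by different amounts: 0.22 ± 0.04, 0.57 ± 0.04, 1.22 ± 0.06 and 1.45 ± 0.20 log2 units (adjusted p over all probes 0.00547, 0.000163, 5.73e-05 and 0.00303). The probe that stands for Cd44 among the genes, its brightest, changed least. The receptor gene Fgfr2, whose epithelial isoform ESRP proteins favour, split as well. Its brighter probe had signals of -1.747, -1.874 and -2.004 in knockout and -1.733, -1.843 and -1.573 in hetero spheres, with overlap and a log2 change of -0.16 ± 0.10 (adjusted p = 0.204). The dimmer Fgfr2 probe was above background on the 3 knockout arrays alone and at least 1.82-fold higher, a bound that was not itself tested. Its limma adjusted p of 0.000826 over all probes belongs to the fitted change of 1.38 log2 units. With that fitted probe included, the probes averaged gave 0.61. The sources used here do not say where on the transcripts these probes lie, and the differences between probes were not tested.

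Luminal markers moved with the regulators, and Epcam and Cdh1 among them also stand in the list of junction and protease genes. All 6 luminal epithelial markers (Krt8, Krt18, Krt7, Krt19, Epcam, Cdh1) were higher, and their summed signal, in multiples of the array's 75th percentile, was 104.7 to 107.5 in knockout and 9.40 to 9.74 in hetero spheres. Of 4 basal markers tested 3 were higher, with a summed signal of 77.5 to 77.8 in knockout and 16.9 to 17.2 in hetero spheres. All 7 macrophage markers tested were lower, at 5.21 to 5.35 in knockout and 12.5 to 12.9 in hetero spheres, and 6 of 8 fibroblast markers were lower and 1 higher, at 1645 to 1702 in knockout and 2129 to 2348 in hetero spheres. The shares over all genes were 27.9% higher and 32.5% lower. With spike-in scaling 6 luminal and 4 basal markers were higher, 6 of 7 macrophage markers lower, and 2 fibroblast markers higher and 4 lower. Of 5 endothelial markers 3 were lower and 1 higher, but 3 higher and 0 lower with spike-in scaling. Of 2 T cell genes tested 0 were higher and 1 lower, but 1 higher and 0 lower with spike-in scaling. Of 3 adipocyte genes 0 were higher and 1 lower, but 2 higher and 0 lower with spike-in scaling. Of 2 B cell genes 1 was higher and 0 lower under both, but the higher one was not well above background on any hetero array. With probes above background on all 6 arrays, 1 B cell gene was tested, and it was lower. The defining T cell gene Cd3d did not pass the background test on any of the 6 arrays. The 6 luminal markers passed it on all 6. The part of cell make-up in the regulators' rises was not tested.

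The genes closest to each regulator were those with the smallest Euclidean distance between mean-centred scaled log2 signals over the 6 arrays, a description that rests mostly on the size of the genotype difference. Ehf lay closest to the keratin gene Krt19 (distance 0.10) and the secreted inhibitor gene Wfdc2 (0.20). No distance is given for Elf3, whose hetero level was not measured. Grhl2 lay closest to 0610040J01Rik (0.12) and the planar polarity cadherin gene Celsr1 (0.14). Grhl1 was nearest to the cornified envelope gene Lce1f (0.18) and to Tnfsf10 (0.30), and Esrp2 to the cornified envelope gene Sprr1a (0.07) and Slc5a7 (0.12). The neighbours of Esrp1 were Slit1 (0.10) and Tspan13 (0.11), that of Rbm47 Fgd6 (0.07, before Rec114, not well above background on any hetero array), and those of Klf5 Clcn3 and Tafa5 (0.07 each). Ovol2 lay among genes with little change, nearest to Ago2 and Polr2f (0.02 each).

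**Figure D5:**
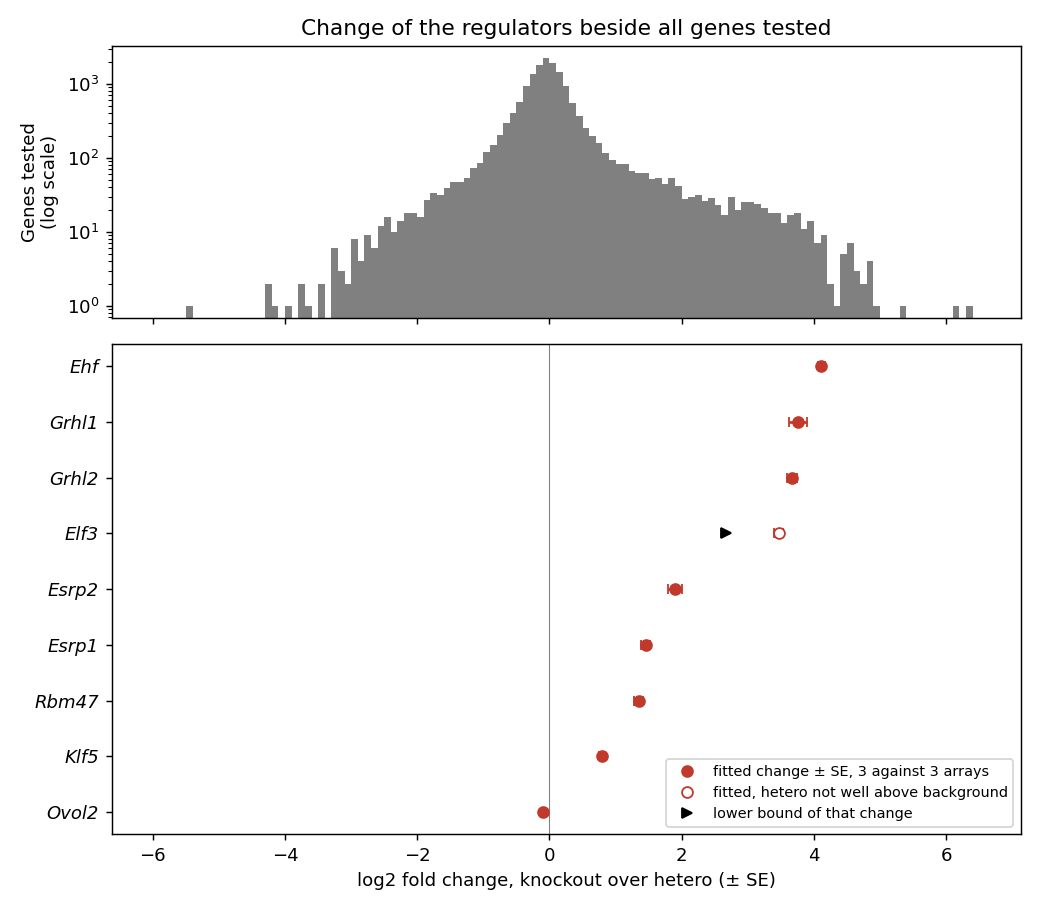
Upper panel: number of the 15852 genes tested (log axis) at each log2 fold change, knockout over hetero. Lower panel: the same change for each of the 9 tested regulators with its standard error, with Elf3 open and its lower bound as a triangle. Ehf, Grhl1 and Grhl2 lie in the right tail of all genes, and Ovol2 near 0.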

How the data were processed

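The submitters' processing notes name Agilent Feature Extraction 10.7.3.1 as the software that read the single-colour (Cy3) arrays. Each deposited scanner file gives an intensity per spot. Of these, the processed signal was used, from which background and spatial trend had been removed, per the file headers, without scaling between arrays. Another deposited table holds the same intensity for 46598 probes, divided by a constant per array (100% of them within 1%). That table is linear and not centred, with column medians of 0.163, 0.159 and 0.159 for the knockout and 0.161, 0.159 and 0.169 for the hetero arrays.

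Control spots and outlier spots (102 to 129 per array) were left out, no spot was saturated, and spots of a probe were averaged on the log2 scale. Probes were named by RefSeq accession through a GRCm38.p6 gene table (27235 probes, 20660 genes). Log2 signals were scaled to each array's 75th percentile. Probes well above background on at least 3 of 6 arrays were kept (35444), and a gene is its brightest kept probe. Genotypes were compared with lmFit and eBayes (limma 3.58.1, R 4.3.3), Benjamini-Hochberg adjusted over 15852 genes, threshold 0.05. Probe values come from the same fit over the kept probes. The number of arrays limits the precision. The fit was also run on simulated data that took their means and spreads from these arrays. It recovered 30% of changes of 0.25 log2 units, 66% of 0.5, 92% of 1 and 88% of 2. That run made 148 calls, 10 of them false, against 9568 calls in the data, so these shares may not carry over. Alternatives were other scalings (median, quantile, spike-in), normexp, other filters, probes averaged, the deposited table, blocks and leaving out each array. Normexp used median pixel signals, as the files hold no mean signal.

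All members were described. From each related list the 5 tested genes with the smallest p were named, and always Cdh1, Zeb1, Zeb2, Fgfr2, Cd44 and Rbfox2, with the 2 nearest genes per member except Elf3; a gene that this rule names is not reported here. Members and lists were chosen with earlier results of these data known. Of 123 listed genes 121 were on the array.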

Additional observations from a re-analysis of the deposited data

How the results depend on the processing

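The genes called ran from 7069 (median scaling) to 12658 (spike-in scaling) over 17 other settings, against 9568, and from 8558 to 8943 when 1 array was left out. The count of regulators called was 8 or 9 in each, and 12 of their 13 tested probes were called with any 1 array left out. The 8 rises passed under every setting that tested them. Elf3 is not tested when probes must be above background on all 6 arrays. Ovol2 lost its call under median scaling, quantile scaling, normexp, the replicate block (adjusted p = 0.0808), and also when knockout replicate 2, knockout replicate 3, hetero replicate 2 or hetero replicate 3 was left out (limma adjusted p 0.0601 to 0.0695).

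Spike-in scaling, which adds 0.42 to all changes, reversed Ovol2 (0.31), Klf3 (0.10), Klf4 (0.23), Elf2 (0.33), Zeb1 (0.31), Zeb2 (0.38), Mbnl2 (0.13), Rbfox2 (0.12), Exoc7 (0.19), Fgfr2 (0.26), Ago2 (0.31) and Polr2f (0.32). Averaging probes reversed Fgfr2 (0.61), which has a second, rising probe, and Esrp2 minus Esrp1 (-0.18). Normexp reversed Esrp2 minus Esrp1 (-0.18) and Grhl2 minus Grhl1 (0.87); the cause was not tested. With 1 array left out, Grhl2 minus Grhl1 ran from -0.23 to 0.12 and Esrp2 minus Esrp1 from 0.39 to 0.52. Without the filter, Ovol2 minus Ovol1 was -1.28 (exact permutation p = 0.2), with Ovol1 dim.

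Arrays with the same replicate number did not deviate together across genes (correlations -0.12, -0.02 and -0.01), so the numbers were not taken as pairs. With the replicate block 8498 genes and 8 regulators were called, and of 66 named genes Ovol2, Elf2, Ago2 and Polr2f lost their call. A random block for slide column, added after seeing the data (consensus correlation -0.41), called 10844 genes and 9 regulators. No column held both genotypes, so this block could not test whether column contributes to the genotype difference. Signal over background limits Ovol1 and Elf3, and the dimmer probes of Grhl2, Esrp1 and Fgfr2, to bounds.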
